A study of Mus musculus with 54 samples.

Results

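The 9 transcriptional regulators known for their part in the self-renewal of hematopoietic stem cells (HSC) described here are Hoxa9, Hoxb4, Meis1, Mecom, Prdm16, Hlf, Gfi1, Gfi1b and Bmi1. They were chosen by name, as the 9 rows of that name among the 24421 genes of the deposited table, and all 9 passed the filter on low counts that left 14320 genes for testing. The study concerns dmPGE2, a stabilised analogue of prostaglandin E2 injected before lethal irradiation, and gene expression in mouse HSC. All mice, the controls included, were of C57BL/6 background and carried a ZsGreen reporter of Fgd5, a gene expressed in HSC, and HSC were sorted from bone marrow by the SLAM and LSK surface markers together with the reporter. A subcutaneous injection of dmPGE2 or of the vehicle, ethanol in saline, went to mice of both sexes, which were exposed to 8.53 Gy after 30 min or left unirradiated. The 54 RNA-seq libraries fall into 6 groups: unirradiated with vehicle (15 libraries, the baseline, which pools 8 samples labelled 1 h and 7 labelled 24 h), unirradiated with dmPGE2 at 1 h (7), irradiated with vehicle (8 at 1 h and 8 at 24 h) and irradiated with dmPGE2 (8 at 1 h and 8 at 24 h). The labels give no age of the mice, and they state the dmPGE2 dose in 2 ways that differ, so no dose is given here.

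These proteins act at different steps. HOXA9 and HOXB4 are homeodomain factors that bind DNA together with PBX and MEIS proteins, of which MEIS1 is the main partner in HSC, and the MLL and menin complex maintains HOX transcription. MECOM and PRDM16 are related zinc finger proteins with a PR domain, and both are needed to maintain HSC. HLF is a PAR-type bZIP factor that is high in HSC and lost on differentiation. GFI1 and GFI1B are closely related repressors that recruit the LSD1 and CoREST complex, GFI1 restraining HSC proliferation and GFI1B also driving megakaryocytic and erythroid differentiation. BMI1 is a subunit of Polycomb repressive complex 1 (PRC1), which silences the cell cycle inhibitor locus Cdkn2a.

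The baseline libraries need a caution before any result. Their column names carry no time but hold 8 tags, number pairs such as 5-1. Of these tags, 7 occur on 2 libraries, once with a sample number from S42 to S70 and once from S79 to S85. Such tags recur across treatments in the other groups, and at 24 h across sexes, so a tag alone does not name a mouse. In 7 of 7 such pairs the S79 to S85 library resembled its namesake more than any other S42 to S70 library (correlation of log2 CPM 0.954 to 0.982). Libraries within the same set of sample numbers were not compared in this way. The counts of the paired libraries nevertheless differed beyond sampling noise, with a chi-square per degree of freedom from 18.6 to 42.8. Sex-linked transcripts gave 10 male libraries in the baseline where the labels give 8, and the labels' number in each of the other groups. The 15 libraries may come from 8 mice, but resemblance alone does not show this. After each group's mean was removed, the namesakes correlated at 0.22 to 0.49. Same-tag libraries of irradiated dmPGE2 and vehicle mice at 1 h correlated at 0.17 to 0.70. Whether namesakes share a mouse or only a tag was not tested. Results that use the baseline are given with the pairs summed, and with either set of sample numbers alone, wherever that changes a call. Between the namesakes, Mecom was lower in the S79 to S85 library in 7 of 7 pairs (147 ± 26.3 against 187 ± 31.7 CPM, mean ± SD, n = 7; exact sign-flip test, two-sided, adjusted p = 0.0469, where 0.0156 is the smallest raw p that 7 pairs allow). Hlf was likewise lower in 7 of 7 pairs and Gfi1b higher in 7 of 7, each with the same adjusted p of 0.0469, and the other 6 members were not called.

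Total counts ran from 15049364 to 26217041 per library. All 10 HSC markers looked for, among them Fgd5, Slamf1, Procr and Kit, were detected in every group, and their summed level was lowest at 24 h with vehicle (median 2621 CPM, against 3819 in the baseline and 3212 at 24 h with dmPGE2). Megakaryocyte markers were highest in the same group (8 of 8 markers detected, median sum 1055 CPM with a range of 887 to 1846, against 611 with a range of 293 to 1005 at 24 h with dmPGE2 and 561 in the baseline). Itga2b (median 509 CPM against 218 in the baseline) and Pf4 (229 against 45.9) carried that sum, while Vwf (180 against 226) and Gp1ba (11.8 against 13.6) had lower medians and Gp9 had 47.3 in both. The sum of 12 neutrophil markers was also lowest there (median 106 CPM with a range of 86.9 to 592). With dmPGE2 at 24 h that median was 495 (range 282 to 939), and in the baseline 561 (range 272 to 1810). With dmPGE2 at 24 h Mpo (10.9 against 239 CPM in the baseline), Elane (2.74 against 50.0) and Ctsg (2.92 against 18.6) had lower medians than the baseline. Prtn3 (257 against 168) and the other neutrophil markers had higher ones. Prtn3 carried most of the sum with vehicle at 24 h (median 86.6 CPM against 168 in the baseline). Mmp8 had a median of 0 and Ctsg of 0.0455 CPM. Ltf (4.84 against 1.55 CPM), S100a8 (4.13 against 3.92) and Retnlg had higher medians there than in the baseline, and the other markers lower ones. Libraries 5 to 7 of the 24 h dmPGE2 group stood apart in overall expression, at 3.64 to 13.8 on the first principal component (33.5% of the variance) where the other 5 lay at 29.1 to 38.6. Whether these shifts have a part in the results at 24 h was not tested. In bulk samples, fewer cells of a type and less RNA per cell cannot be told apart.

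The members lie on separate chromosomes apart from Hoxb4, Meis1 and Hlf on chromosome 11 and Gfi1b and Bmi1 on chromosome 2 (mm10). Their exons, as deposited, span 4274 bases for Hoxa9 (chr6:52223097-52227370, minus strand), 3372 for Hoxb4 (chr11:96318267-96321638, plus), 138542 for Meis1 (chr11:18880428-19018969, minus), 558192 for Mecom (chr3:29951296-30509487, minus), 320749 for Prdm16 (chr4:154316125-154636873, minus), 54383 for Hlf (chr11:90336535-90390917, minus), 9151 for Gfi1 (chr5:107716655-107725805, minus), 12533 for Gfi1b (chr2:28609450-28621982, minus) and 9612 for Bmi1 (chr2:18677018-18686629, plus). In GENCODE M21, exons of other genes share 109 bases with Prdm16, 81 with Mecom, 59 with Meis1 and 19 with Gfi1, at most 1.71% of the summed exon length, and none with the other 5 members. The library kit does not mark strand, so reads in those few bases cannot be assigned to either gene.

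The promoters of the 4 members that were higher with dmPGE2 in irradiated HSC at 1 h are shown first, followed for contrast by those of Hlf and Gfi1b, the only 2 of the 9 in which letters of a cAMP response element were found. Each sequence holds the 250 bases before the RefSeq start in GRCm38.p6, written 5′ to 3′ on the gene's own strand, and capitals mark matches to the motifs searched.

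Hoxa9, chr6:52227371-52227620, minus: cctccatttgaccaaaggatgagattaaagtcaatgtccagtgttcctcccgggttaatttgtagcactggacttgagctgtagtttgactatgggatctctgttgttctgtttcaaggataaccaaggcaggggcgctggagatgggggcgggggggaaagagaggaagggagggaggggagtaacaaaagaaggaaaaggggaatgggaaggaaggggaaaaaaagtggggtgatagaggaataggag

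Hoxb4, chr11:96318017-96318266, plus: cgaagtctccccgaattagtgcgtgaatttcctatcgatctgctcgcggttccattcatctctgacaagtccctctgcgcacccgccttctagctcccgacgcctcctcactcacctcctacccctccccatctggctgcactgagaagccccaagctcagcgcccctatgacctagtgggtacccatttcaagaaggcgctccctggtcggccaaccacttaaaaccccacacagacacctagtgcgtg

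Meis1, chr11:19018970-19019219, minus: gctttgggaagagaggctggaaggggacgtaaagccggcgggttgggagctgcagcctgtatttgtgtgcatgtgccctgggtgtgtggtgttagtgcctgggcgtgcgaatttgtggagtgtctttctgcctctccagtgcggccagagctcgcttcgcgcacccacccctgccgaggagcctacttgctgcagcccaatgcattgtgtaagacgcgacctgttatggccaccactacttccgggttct

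Gfi1, chr5:107725806-107726055, minus: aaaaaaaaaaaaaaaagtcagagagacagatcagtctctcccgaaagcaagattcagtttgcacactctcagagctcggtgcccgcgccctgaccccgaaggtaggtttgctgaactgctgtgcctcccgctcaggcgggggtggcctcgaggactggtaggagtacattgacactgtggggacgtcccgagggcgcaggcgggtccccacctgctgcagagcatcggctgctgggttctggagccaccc

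Hlf, chr11:90390918-90391167, minus: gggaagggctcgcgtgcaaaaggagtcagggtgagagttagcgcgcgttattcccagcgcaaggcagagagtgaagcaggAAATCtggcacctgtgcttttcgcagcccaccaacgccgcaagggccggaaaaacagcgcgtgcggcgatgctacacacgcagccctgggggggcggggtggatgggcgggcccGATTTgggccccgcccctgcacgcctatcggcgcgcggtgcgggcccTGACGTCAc

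Gfi1b, chr2:28621983-28622232, minus: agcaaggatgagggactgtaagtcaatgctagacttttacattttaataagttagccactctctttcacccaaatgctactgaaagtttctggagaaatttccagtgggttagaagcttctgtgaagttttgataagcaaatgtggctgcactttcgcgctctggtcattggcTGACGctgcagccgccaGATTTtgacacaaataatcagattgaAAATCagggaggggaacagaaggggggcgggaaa

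The search covered both strands for the cAMP response element TGACGTCA and its part TGACG, the AP-1 site TGAGTCA, the GFI1 site TAAATCAC and its core AAATC, the HOX site TGATTNAC and the PAR bZIP site TTACGTAA, where the short forms lie within the long ones. No match was found in the windows of Hoxa9, Hoxb4, Meis1 and Gfi1, nor in a further RefSeq window of Gfi1. Hlf held the full TGACGTCA, which starts 9 bases before the start site and is present in 1.55% of 32851 promoter windows of the same length, together with 2 matches to AAATC. Gfi1b held TGACG once, as 17.8% of windows do, and AAATC in 2 places, as 32.7% of windows do on at least 1 occasion. Of the remaining members, Mecom had matches to AAATC in both of its windows, Bmi1 had 1 such match, and Prdm16 had none of any motif. A match describes these letters only, and neither a match nor its absence says anything about binding.

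Levels spanned more than 2 orders of magnitude when library-scaled read counts (CPM, with TMM factors) were divided by exon length in kilobases. In the baseline, Meis1 was highest at 168 ± 15.4 CPM per kb (SD, n = 15), followed by Hlf at 72.4 ± 13.8, Gfi1b at 65.7 ± 17.3, Mecom at 30.4 ± 6.11, Bmi1 at 24.6 ± 4.30, Hoxa9 at 19.0 ± 2.40, Prdm16 at 6.57 ± 1.37, Gfi1 at 5.61 ± 1.74 and Hoxb4 at 0.412 ± 0.0987. Libraries of neighbours in this order overlapped, except between Meis1 and Hlf, between Hoxa9 and Prdm16 and between Gfi1 and Hoxb4. The order changed in the irradiated groups. In the vehicle group of 24 h Gfi1b (82.5 ± 12.8 CPM per kb, n = 8) stood above Hlf (44.5 ± 9.14), and Bmi1 (24.6 ± 5.12) above Mecom (17.6 ± 3.84). In the dmPGE2 group of 24 h Gfi1 (11.1 ± 9.09 CPM per kb) stood above Prdm16 (4.13 ± 1.14). Hoxb4 was lowest in every group, with a mean of 17.5 to 39.1 reads per library, so its values are the least precise.

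**Figure D1:**
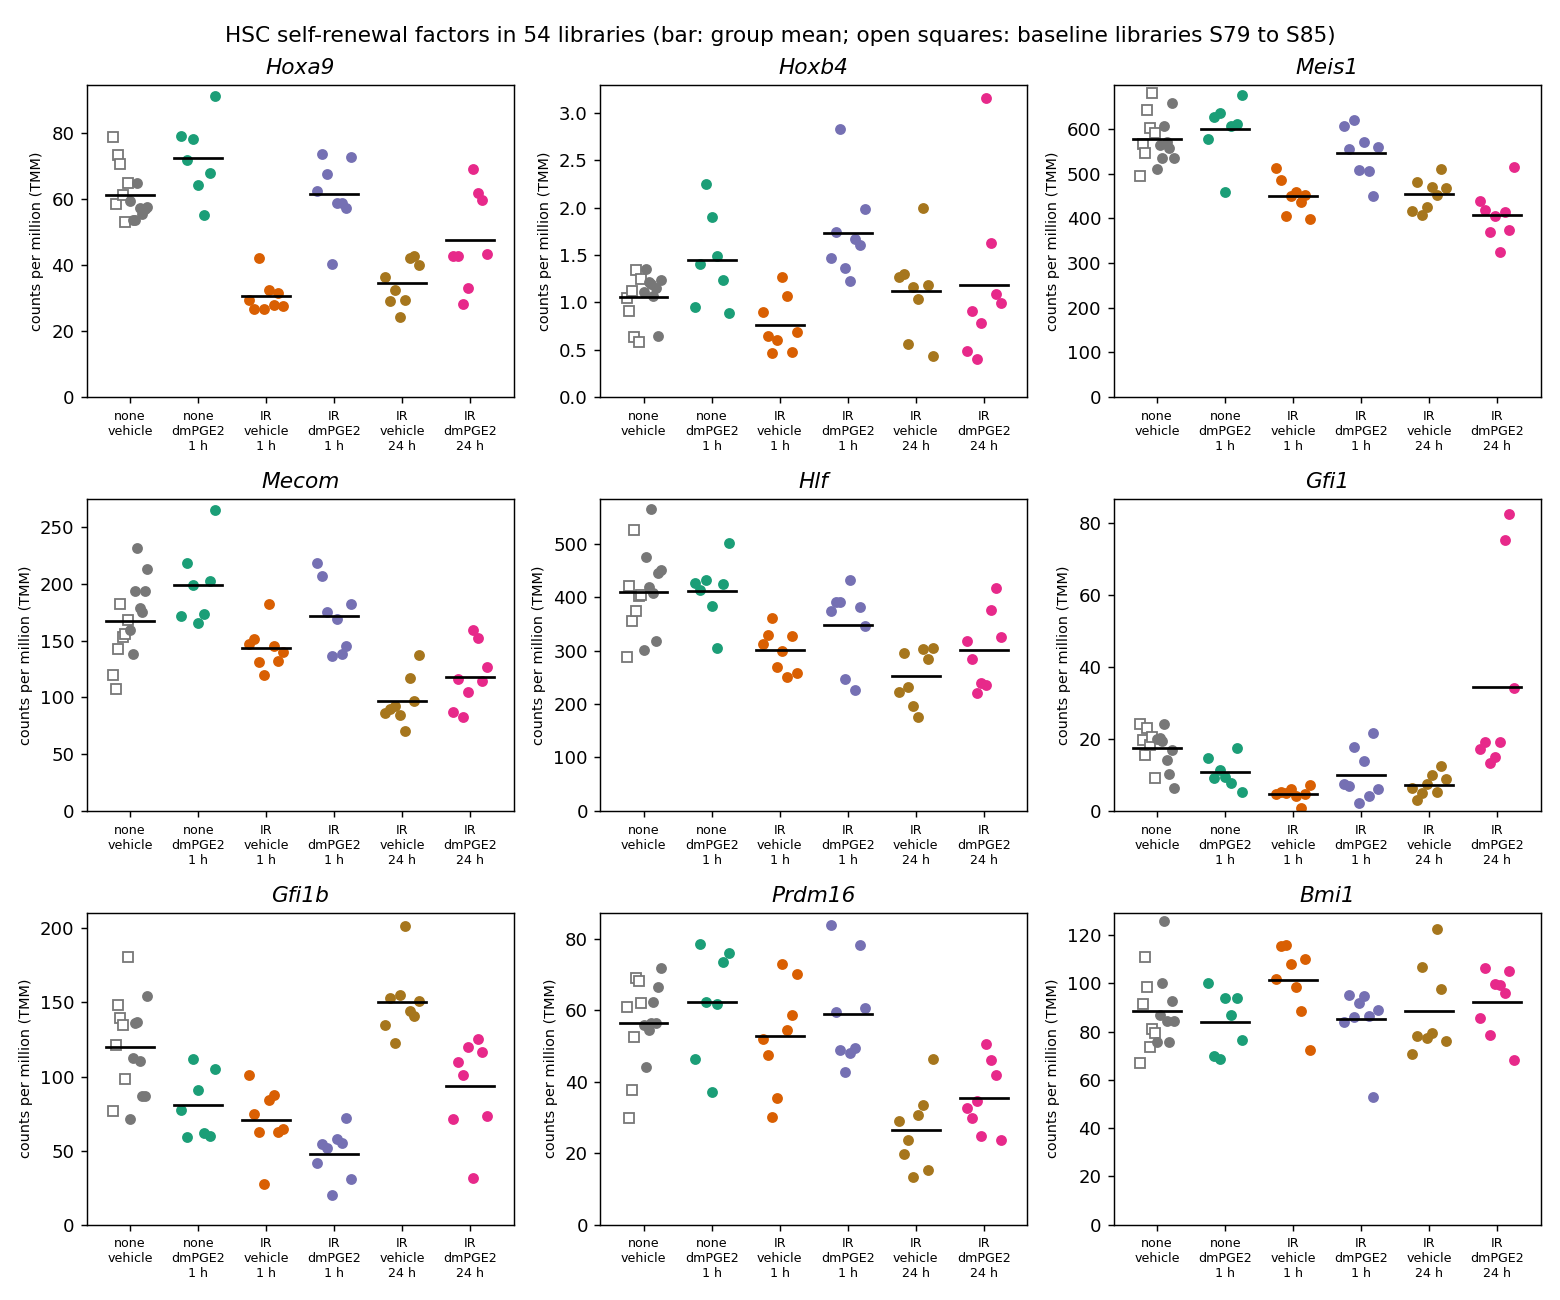
Level of each member in CPM (vertical axes start at 0) in the 54 libraries, grouped by radiation (none or IR), treatment and time; each symbol is a library, bars are group means, and open squares are the baseline libraries S79 to S85. Hoxa9 at 1 h with vehicle lies at 26.7 to 42.1 CPM, below all 15 baseline libraries (52.98 to 78.7), and Gfi1 at 24 h with dmPGE2 lies above the vehicle group of that time.

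Radiation without dmPGE2 lowered most of these genes. At 1 h, 5 of the 9 were called by edgeR's quasi-likelihood test at an adjusted p below 0.05, all 5 lower (Hoxa9, Meis1, Hlf, Gfi1 and Gfi1b), while 16% of all genes tested were called in that comparison. At 24 h, 6 of 9 were called, all 6 lower (Hoxa9, Meis1, Mecom, Prdm16, Hlf and Gfi1), against a background of 49.7% of all genes, so that a count of this size is close to what the other genes gave. The median log2 fold change over the 9 was -0.45 at 1 h and -0.70 at 24 h, beside -0.0027 and -0.063 over all genes. These comparisons share the baseline libraries.

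Treatment with dmPGE2 alone moved none of the 9 past the threshold at 1 h, where 11.1% of all genes were called. The median over the members was 0.054 on the log2 scale, beside 0.0049 over all genes. By edgeR 2 members had an unadjusted p below 0.05, Mecom (0.0453) and Gfi1b (0.00789). With DESeq2 1 member was called (Gfi1b), and with only the 2 unirradiated groups in the fit 2 were (Gfi1b and Gfi1, both lower). With the tag as a replicate block 4 were called, these 2 lower and Hoxa9 (0.28, adjusted p = 0.0136) and Mecom (0.31, adjusted p = 0.0194) higher. In that comparison deviations of the 13 same-tag pairs correlated at 0.082 to 0.58, against a mean of -0.053 for other pairs. These correlations were all positive but not all above 0.1, the level used here to call libraries paired.

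In irradiated HSC at 1 h, dmPGE2 went with higher levels of 4 members (Hoxa9, Hoxb4, Meis1 and Gfi1) and lower levels of none, where 14.8% of all genes were called. At 24 h, 3 were called, Hoxa9 and Gfi1 higher and Gfi1b lower, where 23.9% of all genes were called. Only Gfi1 of these 3 was still called at 24 h without the dmPGE2 libraries 5 to 7. Against the baseline, the dmPGE2 group of 24 h had 6 of 9 called, Gfi1 higher and Hoxa9, Meis1, Mecom, Hlf and Prdm16 lower, where 36.4% of all genes were called. The vehicle libraries of the radiation comparisons are also the controls of the dmPGE2 comparisons, so opposite signs in the 2 comparisons are not independent of each other.

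**Figure D2:**
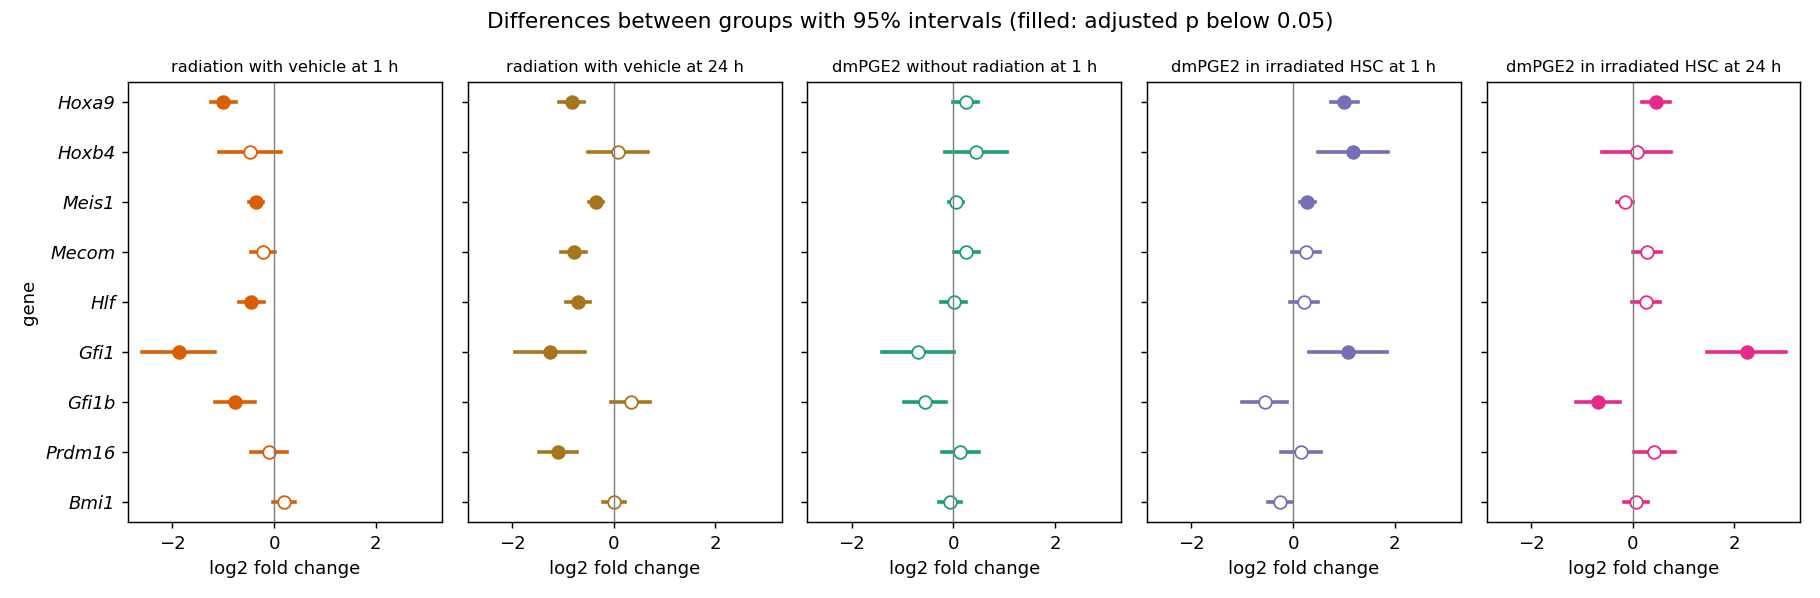
Log2 fold change of the 9 members in 5 comparisons, with 95% intervals from edgeR's quasi-likelihood fit; filled symbols have an adjusted p below 0.05 over all genes. Filled symbols lie left of 0 under radiation with vehicle, and right of 0 for Hoxa9, Hoxb4, Meis1 and Gfi1 with dmPGE2 at 1 h.

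Hoxa9 had the smallest adjusted p of the 9 under radiation and under dmPGE2 in irradiated HSC at 1 h. Its level ranged from 52.98 to 78.7 CPM in the baseline (median 58.4), from 26.7 to 42.1 in irradiated vehicle libraries at 1 h (median 28.7) and from 40.3 to 73.5 in irradiated dmPGE2 libraries (median 60.6). No irradiated vehicle library reached the lowest baseline library, while a single dmPGE2 library, number 4 at 40.3 CPM, fell within the range of the vehicle group. The log2 fold change was -1.01 for radiation (SE 0.12, adjusted p = 3.76e-09) and 1.01 for dmPGE2 in irradiated HSC (SE 0.14, adjusted p = 6.99e-08). With dmPGE2 and radiation together, Hoxa9 was not called against the baseline at 1 h (log2 fold change 0.0035, 95% interval -0.23 to 0.24). Without radiation the dmPGE2 libraries had 55.2 to 91.2 CPM (median 71.6), a log2 fold change of 0.24 that was not called (adjusted p = 0.228). The response to dmPGE2 was larger after radiation than without it, by 0.77 on the log2 scale (SE of 0.18 and adjusted p = 0.0069 for the interaction, where 2.97% of all genes were called). With the baseline libraries S42 to S70 alone that difference was 0.68 and no longer called (adjusted p = 0.0585).

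At 24 h Hoxa9 had 24.4 to 42.8 CPM with vehicle (median 34.4) and 28.1 to 69.1 with dmPGE2 (median 43.03). Libraries 5, 6 and 7 of the dmPGE2 group (69.1, 61.7 and 59.6 CPM) lay above every vehicle library, and the other 5 lay within or close to the vehicle range. The fold change was 0.46 on the log2 scale (SE of 0.13 and adjusted p = 0.0094). Without these 3 libraries it was 0.14 (adjusted p = 0.606), and without library 3 as well 0.23 (adjusted p = 0.349). The response at 24 h was smaller than that at 1 h by 0.55 (SE 0.19, adjusted p = 0.027, where 25.4% of all genes were called), which was not called with only the groups compared in the fit (adjusted p = 0.0677) or with the replicate block (adjusted p = 0.0509). Against the baseline the dmPGE2 group of 24 h was lower (-0.37, adjusted p = 0.0127), a call that was lost against libraries S42 to S70 alone (-0.27, adjusted p = 0.118).

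Hoxb4 was measured near 1 CPM throughout. Irradiated vehicle libraries had 0.465 to 1.27 CPM at 1 h (median 0.666) and irradiated dmPGE2 libraries 1.23 to 2.83 (median 1.64), beside 0.580 to 1.36 in the baseline (median 1.12). The lowest dmPGE2 library lay just under the highest vehicle library, so the groups overlapped by this pair alone. The log2 fold change for dmPGE2 was 1.18 (SE 0.34, adjusted p = 0.0118). Radiation with vehicle gave -0.47 at 1 h (adjusted p = 0.347) and 0.081 at 24 h (adjusted p = 0.845), neither called. At 24 h the dmPGE2 libraries ran from 0.398 to 3.16 CPM around a median of 0.955, and the vehicle libraries from 0.434 to 1.999 around 1.17, with no called difference (log2 fold change 0.075, 95% interval -0.61 to 0.76). The response at 24 h was lower than at 1 h by 1.11 on the log2 scale, which was not called (adjusted p = 0.0841), while without libraries 5 to 7 the difference was -1.82 and called (adjusted p = 0.0056).

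Meis1, the most abundant of the 9, changed by smaller factors with a narrow spread. Its baseline libraries had 496 to 681 CPM (median 566), irradiated vehicle libraries 397 to 513 at 1 h (median 451), and irradiated dmPGE2 libraries 450 to 620 (median 557). Radiation lowered it (log2 fold change -0.36, SE 0.067, adjusted p = 4.29e-05), and the irradiated dmPGE2 libraries stood 0.28 above the vehicle group (SE 0.075, adjusted p = 0.0057), with overlap between libraries in both cases. At 24 h it was lower than the baseline with vehicle (408 to 511 CPM, log2 fold change -0.35, adjusted p = 1.99e-05) and with dmPGE2 (325 to 515 CPM, log2 fold change -0.50, adjusted p = 2.39e-08). The dmPGE2 group of 24 h was not called against vehicle (-0.15, adjusted p = 0.130). Its response at 24 h was lower than the one at 1 h by 0.44 (SE 0.11, adjusted p = 0.0017).

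Neighbouring HOX genes were examined alongside, from a list of 33 other HOX cluster genes and HOX cofactors of which 22 were tested. Radiation with vehicle at 1 h called 4 of the 22, all lower, beside 16% of all genes, and dmPGE2 in irradiated HSC at 1 h called 5, all higher, beside 14.8%, so both shares are not far from the background. Hoxa10, the gene next to Hoxa9, had 40.0 ± 5.33 CPM in the baseline (n = 15), 22.7 ± 3.48 at 1 h with vehicle (n = 8) and 44.1 ± 6.75 with dmPGE2 (n = 8), log2 fold changes of -0.82 (adjusted p = 1.62e-07) and 0.96 (adjusted p = 6.58e-08). Hoxa5 was not called under radiation (-0.24, adjusted p = 0.589) and was higher with dmPGE2 both in irradiated HSC (20.6 ± 7.85 against 5.35 ± 1.77 CPM, log2 fold change 1.94, adjusted p = 3.07e-07) and without radiation (19.1 ± 6.37 against 6.34 ± 1.09 CPM, 1.59, adjusted p = 8.56e-07). Hoxa7 and Hoxa10 were also higher with dmPGE2 alone (0.43 and 0.36 on the log2 scale, adjusted p = 0.0149 and 0.0269), where Hoxa9 was called with the replicate block alone. Within the Hoxa cluster, Hoxa9 included, 5 of 9 tested genes were called with dmPGE2 in irradiated HSC at 1 h, and in the Hoxb cluster, Hoxb4 included, 2 of 7. The count of 4 lower HOX genes under radiation at 1 h became 6 without the 24 h dmPGE2 libraries 5 to 7, which are in neither group of that comparison, and 6 with DESeq2. With dmPGE2 alone 3 of the 22 were higher and 1 lower, or 1 and 1 with the baseline pairs summed.

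**Figure D3:**
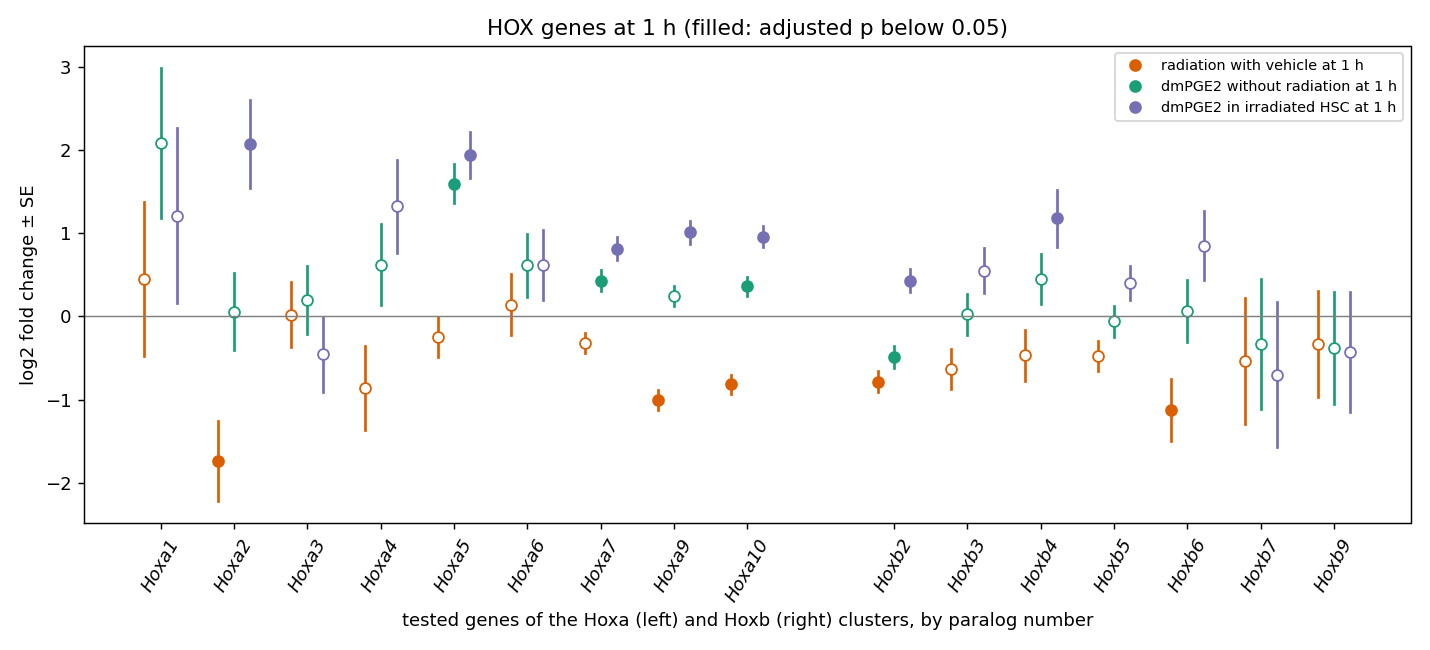
Log2 fold change ± SE of the tested genes of the Hoxa (left) and Hoxb (right) clusters in 3 comparisons at 1 h, in order of paralog number; filled symbols have an adjusted p below 0.05. With dmPGE2 in irradiated HSC the filled symbols are Hoxa2, Hoxa5, Hoxa7, Hoxa9, Hoxa10, Hoxb2 and Hoxb4, all above 0.

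At 24 h, radiation with vehicle called 6 of the 22 HOX genes and cofactors, 5 lower, a smaller share than the 49.7% of all genes, with Hoxa10 at 22.5 ± 3.92 CPM (log2 fold change -0.83, adjusted p = 2.98e-08) and Pbx4, a partner of HOX proteins, at 4.30 ± 1.59 against 7.83 ± 1.70 (-0.86, adjusted p = 2.85e-05). With dmPGE2 at 24 h, 4 of the 22 were higher, beside 23.9% of all genes called, Hoxb5 and Pbx4 having the smallest adjusted p (log2 fold changes 0.73 and 0.67, adjusted p = 0.0067 and 0.0070). Without libraries 5 to 7 edgeR called 0 of the 22, with 3 at an unadjusted p below 0.05, and with all libraries DESeq2 called 5. Of 15 genes of the MLL and menin complex, 1 was higher and 1 lower after radiation at 1 h, beside 16% of all genes called. Aff4, a subunit of the elongation complex that MLL fusions recruit, rose from 65.8 ± 21.1 to 121 ± 16.5 CPM. Mllt3, a reader of acetylated histones in the same complex, fell from 220 ± 36.5 to 147 ± 23.6. At 24 h with vehicle 2 were higher and 8 lower, beside 49.7% of all genes called, among the latter Mllt3 (114 ± 20.6 CPM, log2 fold change -0.95, adjusted p = 2.20e-09) and, among the former, Dpy30 (156 ± 17.9 against 85.5 ± 14.8 CPM, 0.87, adjusted p = 8.71e-11). With dmPGE2 in irradiated HSC 1 of the 15 was lower at 1 h (Rbbp5), beside 14.8% of all genes called. At 24 h 2 were higher and 4 lower with dmPGE2, beside 23.9% of all genes called. Without libraries 5 to 7 edgeR called 0 of the 15 at 24 h, with 4 at an unadjusted p below 0.05.

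Mecom was not called at 1 h under radiation with vehicle (119 to 182 CPM with a median of 143, against 107 to 232 with a median of 168 in the baseline; log2 fold change -0.22, adjusted p = 0.226). By 24 h it had fallen to 69.9 to 138 CPM with vehicle (median 91.3), with a log2 fold change of -0.79 (SE of 0.12 and adjusted p = 3.09e-07). Against the irradiated vehicle libraries of 1 h the change was -0.57 (adjusted p = 0.000385, where 50.9% of all genes were called). The dmPGE2 libraries of 24 h had 82.7 to 160 CPM (median 115), which was lower than the baseline (-0.51, adjusted p = 0.00069) and not called against vehicle (0.28, adjusted p = 0.121). Mecom is the member whose baseline differed most between the namesake libraries, and against libraries S79 to S85 alone the dmPGE2 group of 24 h was no longer called (-0.30, adjusted p = 0.0959). Without radiation, dmPGE2 gave 165 to 265 CPM (median 199), a difference of 0.25 that was not called (adjusted p = 0.212) but was called against S79 to S85 alone (0.45, adjusted p = 0.0218). At 1 h in irradiated HSC, dmPGE2 gave 136 to 218 CPM (median 172) and a log2 fold change of 0.25 (adjusted p = 0.225). With the tag as a replicate block, which pairs the libraries in that comparison, it was 0.24 and called (adjusted p = 0.0408).

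Prdm16, like Mecom, was called lower at 24 h and not at 1 h. Its libraries had 29.9 to 71.96 CPM in the baseline (median 56.5) and 30.1 to 72.9 at 1 h with vehicle (median 53.3), with no called change (adjusted p = 0.788, log2 fold change -0.10, 95% interval -0.45 to 0.25). At 24 h with vehicle they had 13.4 to 46.5 CPM (median 26.3), with a log2 fold change of -1.10 (SE of 0.18 and adjusted p = 1.43e-06), and 7 of the 8 lay below the median of the dmPGE2 group. The dmPGE2 libraries of 24 h had 23.7 to 50.6 CPM (median 33.7), lower than the baseline (-0.67, adjusted p = 0.0023) and not called against vehicle (0.42, 95% interval 0.024 to 0.82, adjusted p = 0.117). From 1 h to 24 h with vehicle, Prdm16 fell by 0.99 on the log2 scale (adjusted p = 3.91e-05). In 1 h libraries dmPGE2 gave no called change with radiation (0.16, adjusted p = 0.683) or without (0.14, adjusted p = 0.757).

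All of 11 corepressor genes that work with MECOM and PRDM16 were tested. Skil, which encodes the SMAD corepressor SnoN, rose at 1 h in both treatments: from 23.2 ± 6.71 CPM in the baseline to 104 ± 34.8 with radiation and vehicle (log2 fold change 2.16, adjusted p = 8.68e-12), to 160 ± 17.0 with dmPGE2 alone (2.78, adjusted p = 1.13e-14) and to 205 ± 44.2 with radiation and dmPGE2. It was the single gene of that list called under radiation with vehicle at 1 h, beside 16% of all genes. With dmPGE2 in irradiated HSC at 1 h, Skil and Ctbp1 were higher and none was lower, beside 14.8% of all genes called. At 24 h with vehicle 4 were higher and 3 lower, where 49.7% of all genes were called. With dmPGE2 at 24 h 1 was higher and 3 lower, beside 23.9% of all genes called. Without libraries 5 to 7, 1 was called, as lower.

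Hlf was lower after radiation at both times. Baseline libraries had 287 to 565 CPM (median 408), irradiated vehicle libraries 251 to 362 at 1 h (median 306) and 176 to 306 at 24 h (median 258). The ranges overlapped at both times. The log2 fold changes were -0.45 (SE 0.12, adjusted p = 0.0056) and -0.70 (SE 0.12, adjusted p = 3.09e-06). With dmPGE2, irradiated libraries had 227 to 433 CPM at 1 h (median 378) and 221 to 417 at 24 h (median 302), and neither difference from vehicle was called (0.21, adjusted p = 0.337, and 0.26, adjusted p = 0.156). Against the baseline the dmPGE2 group was not called at 1 h (-0.23, adjusted p = 0.188) and was lower at 24 h (-0.44, adjusted p = 0.0030). Without radiation the dmPGE2 difference in Hlf was not called (0.0086, 95% interval -0.24 to 0.26).

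Among the 3 genes related to Hlf, Tef, another PAR bZIP factor, was lower with dmPGE2 in irradiated HSC at 1 h (45.5 ± 10.7 against 69.02 ± 12.9 CPM, log2 fold change -0.60, adjusted p = 0.0034) and higher at 24 h (109 ± 23.5 against 54.9 ± 10.8 CPM, 0.98, adjusted p = 4.54e-06). Nfil3, a bZIP repressor that competes for the same sites, was higher after radiation with vehicle at 1 h (10.5 ± 1.46 against 6.30 ± 1.89 CPM, 0.74, adjusted p = 0.018), a call that was lost with the baseline pairs summed. Dbp, a clock-controlled PAR bZIP factor, was the single gene of the 3 called under radiation with vehicle at 24 h, beside 49.7% of all genes. It had 7.66 ± 1.95 against 13.4 ± 2.17 CPM (-0.80, adjusted p = 0.000138). With dmPGE2 at 24 h, Tef and Nfil3 were higher, beside 23.9% of all genes called, and 1 of the 3 genes was called without libraries 5 to 7.

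Gfi1 had the largest fold change of the 9 under radiation with vehicle at both times and with dmPGE2 in irradiated HSC at 24 h. Baseline libraries had 6.43 to 24.2 CPM (median 19.4), irradiated vehicle libraries 0.681 to 7.17 at 1 h (median 4.84) and 2.93 to 12.5 at 24 h (median 6.95). At 1 h the highest vehicle library lay just above the lowest baseline library, and at 24 h 3 of the 15 baseline libraries lay within the vehicle range. The log2 fold changes were -1.88 (SE 0.36, adjusted p = 6.95e-05) and -1.26 (SE 0.35, adjusted p = 0.0020). With dmPGE2, irradiated libraries at 1 h had 2.29 to 21.7 CPM (median 7.17), with libraries 3, 5 and 7 at 13.8 to 21.7 CPM and the other 5 within or near the vehicle range. The log2 fold change was 1.08 (SE 0.38, adjusted p = 0.0457), which was close to the threshold: it was not called with the replicate block by tag (0.95, adjusted p = 0.065), with both irradiated groups of 1 h fitted alone (adjusted p = 0.0921) or without a filter on low counts (adjusted p = 0.056).

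Without radiation, dmPGE2 libraries had 5.29 to 17.4 CPM of Gfi1 (median 9.49), and the log2 fold change of -0.70 was not called (adjusted p = 0.232). The dmPGE2 response with radiation exceeded that without it by 1.78 on the log2 scale (SE of 0.52 and adjusted p = 0.0433 for the interaction). That call was lost with the baseline pairs summed (1.75, adjusted p = 0.101), with libraries S42 to S70 alone (1.70, adjusted p = 0.151) and without the filter (adjusted p = 0.0525).

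At 24 h, Gfi1 had 13.3 to 82.7 CPM in the 8 dmPGE2 libraries (median 19.2), all above the highest vehicle library at 12.5 CPM. Libraries 6 and 7 were highest (75.3 and 82.7 CPM), library 8 had 34.2 CPM, and the other 5 had 13.3 to 19.2. The log2 fold change was 2.24 (SE 0.39, adjusted p = 2.93e-05), and without libraries 5 to 7 it was 1.44 and still called (adjusted p = 0.0104). Against the baseline the dmPGE2 group was higher by 0.98 (SE 0.31, adjusted p = 0.0113), which was 0.18 without libraries 5 to 7 (adjusted p = 0.714) and not called against libraries S79 to S85 alone (adjusted p = 0.103). The response at 24 h was larger than at 1 h by 1.16 on the log2 scale, a difference that was not called (adjusted p = 0.103). In libraries 5 to 7, 2 of which had the highest Gfi1, summed dendritic markers (5 markers) were 122 to 177 CPM against 21.7 to 56.1 in the other 5. Over the 8 libraries Flt3, which is not particular to dendritic cells, ranged from 8.15 to 164 CPM and Irf8 from 10.5 to 30.0. Siglech, Cd209a and Xcr1 reached at most 4.84, 1.07 and 0.155 CPM. Summed endothelial markers (6 markers) were 185 to 210 CPM against 94.9 to 117, and they include Cldn5, the gene closest to Gfi1 over all libraries. Megakaryocyte markers were lowest in libraries 6 and 7 (340 and 293 CPM), and neutrophil markers (664 and 310 CPM) lay within the range of the 8. These sums do not show that such cells were present, and the part of cell composition in the Gfi1 levels was not tested.

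Gfi1b moved in another order. Baseline libraries had 71.3 to 181 CPM (median 121), irradiated vehicle libraries 27.6 to 100.8 at 1 h (median 69.9) and 122 to 202 at 24 h (median 148). Radiation lowered it at 1 h (log2 fold change -0.76, SE 0.20, adjusted p = 0.0038) and left no called difference from the baseline at 24 h (0.33, adjusted p = 0.144), though with only the groups compared in the fit the latter was called (adjusted p = 0.0446). From 1 h to 24 h with vehicle it rose by 1.09 on the log2 scale (SE of 0.22 and adjusted p = 4.15e-05), the only called rise among the 9 in that comparison, and the 2 groups did not overlap. With dmPGE2, irradiated libraries had 20.2 to 71.9 CPM at 1 h (median 53.2) and 31.4 to 125 at 24 h (median 105). The difference from vehicle was -0.56 at 1 h (adjusted p = 0.0817, or 0.0493 without the 24 h libraries 5 to 7) and -0.68 at 24 h (SE 0.22, adjusted p = 0.0176), the latter with 7 of the 8 dmPGE2 libraries below every vehicle library. Without libraries 5 to 7 the value at 24 h was -0.66 and not called (adjusted p = 0.0703).

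With dmPGE2 and radiation together at 1 h, Gfi1b was the only member called against the baseline in the fit of all libraries, at -1.32 on the log2 scale (SE of 0.20 and adjusted p = 1.09e-06, where 18.3% of all genes were called). Hoxb4 was also called there, as higher, by DESeq2 (0.71, adjusted p = 0.0435, beside 0.0791 by edgeR), and by edgeR with only the groups compared (adjusted p = 0.0303), with the replicate block (0.0440) and without the 24 h libraries 5 to 7 (0.0463). Gfi1 was called as lower with the block (-0.88, adjusted p = 0.0066). Without radiation, dmPGE2 libraries had 59.1 to 112 CPM (median 77.3) and a log2 fold change of -0.57 (adjusted p = 0.0646), which was called with DESeq2 (adjusted p = 0.0309). Between the irradiated and the unirradiated dmPGE2 groups at 1 h the difference was -0.75 (adjusted p = 0.251), in a comparison where 0.377% of all genes and none of the 9 members were called by edgeR or DESeq2. Of the 9, 1 had an unadjusted p below 0.05 by edgeR in that comparison (Gfi1b). The summed megakaryocyte markers stood at 887 to 1846 CPM at 24 h with vehicle, where Gfi1b was highest, and at 293 to 1005 CPM with dmPGE2. Their part in the Gfi1b difference was not tested.

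**Figure D4:**
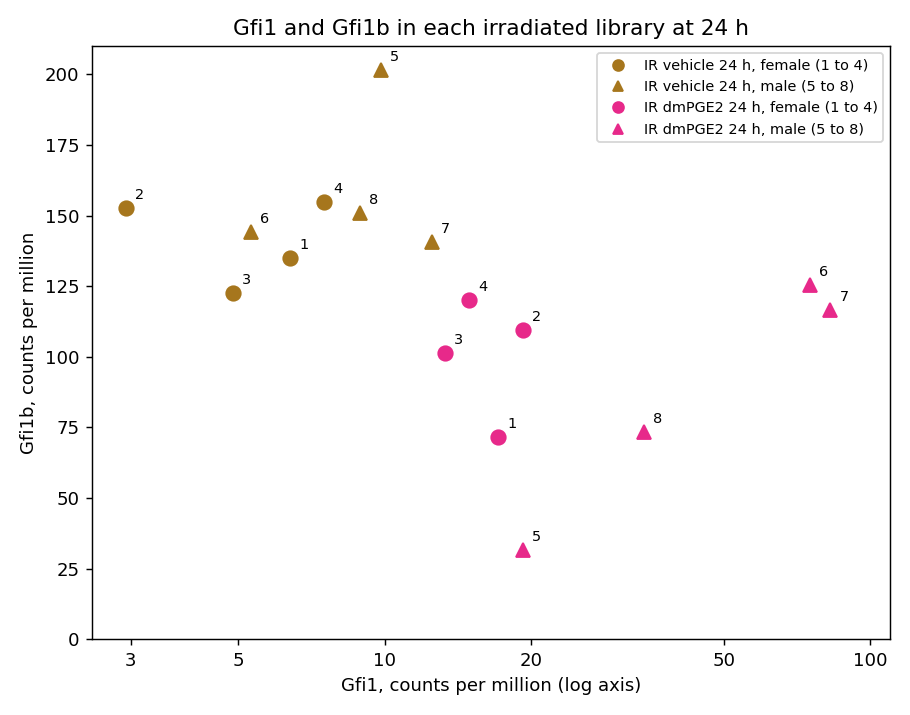
Level of Gfi1 (horizontal, log axis) and Gfi1b (vertical) in CPM in each irradiated library at 24 h, labelled with its number; circles are female and triangles male mice as the column names state. All 8 dmPGE2 libraries have more Gfi1 than any vehicle library (13.3 CPM and above against 12.5 and below), and library 5 has the least Gfi1b, 31.4 CPM.

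All 12 LSD1 and CoREST partners of both repressors were tested. Under radiation with vehicle at 1 h 1 was higher and none lower, beside 16% of all genes called. This was Kdm1a, which encodes LSD1 itself, at 135 ± 8.89 against 117 ± 15.4 CPM (log2 fold change 0.20, adjusted p = 0.0429). That call was lost with the baseline pairs summed. With dmPGE2 at 1 h edgeR called 0 of the 12 in irradiated and in unirradiated HSC, beside 14.8% and 11.1% of all genes. In each, 2 had an unadjusted p below 0.05, while DESeq2 called 1 as lower in irradiated HSC and 0 without radiation. At 24 h with vehicle 2 were higher and 7 lower, where 49.7% of all genes were called, with Rcor2, a CoREST subunit, at 14.8 ± 2.43 against 32.4 ± 8.72 CPM (-1.13, adjusted p = 1.57e-07). With dmPGE2 at 24 h 2 were higher and 1 lower, beside 23.9% of all genes called. Without libraries 5 to 7 edgeR called 0 of the 12 at 24 h, with 4 at an unadjusted p below 0.05.

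Bmi1 was called by edgeR in 0 of the 12 comparisons, with an unadjusted p below 0.05 in 1 (dmPGE2 in irradiated HSC at 1 h), and DESeq2 called it in 0. With the replicate block it was called higher under radiation with vehicle at 1 h (0.21, adjusted p = 0.0354), where the tags were not shown to pair the libraries. Its libraries had 66.9 to 126 CPM in the baseline (median 84.5), 72.3 to 116 at 1 h with radiation and vehicle (median 105) and 53.1 to 95.003 with radiation and dmPGE2 (median 87.7). All these ranges overlapped. The radiation difference at 1 h was 0.19 (95% interval -0.014 to 0.40, adjusted p = 0.226) and the dmPGE2 difference in irradiated HSC -0.25 (95% interval -0.49 to -0.013, adjusted p = 0.164). At 24 h it had 70.7 to 123 CPM with vehicle and 68.1 to 106 with dmPGE2, with log2 fold changes of 0.0014 against the baseline (95% interval -0.21 to 0.21) and 0.060 against vehicle (-0.18 to 0.30).

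Of 19 other PRC1 subunits, all tested, radiation with vehicle at 1 h called 4 higher and 3 lower and left 12 not called (16% of all genes were called). Rnf2, the catalytic ubiquitin ligase subunit RING1B, rose from 157 ± 19.6 to 246 ± 42.2 CPM (log2 fold change 0.65, adjusted p = 8.67e-08), and Cbx8, a chromodomain subunit, fell from 14.6 ± 2.82 to 4.71 ± 0.868 (-1.63, adjusted p = 5.87e-07). In irradiated HSC at 1 h dmPGE2 went with 4 lower, none higher and 15 not called (14.8% of all genes were called). Among the lower were Rnf2 at 154 ± 25.6 CPM (-0.68, adjusted p = 1.44e-06) and Cbx7 at 24.1 ± 5.08 against 44.9 ± 5.75 (-0.90, adjusted p = 9.10e-05). At 24 h with vehicle 1 was higher and 9 lower, a share near the 49.7% of all genes called, Cbx7 having the smallest adjusted p (15.7 ± 3.22 against 36.9 ± 7.99 CPM, -1.23, adjusted p = 4.24e-09). Cbx7 and Rnf2 were higher with dmPGE2 at 24 h, beside 23.9% of all genes called. Without libraries 5 to 7 edgeR called 0 of the 19 at 24 h, with 1 at an unadjusted p below 0.05.

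Genes that these factors are known to control were taken from a list of 18, of which 17 were tested. Cdkn1a, the cell cycle inhibitor p21 that GFI1 represses and p53 induces, had 8.30 ± 3.87 CPM in the baseline, 657 ± 108 at 1 h with radiation and vehicle (log2 fold change 6.31, adjusted p = 5.55e-36) and 307 ± 61.7 with radiation and dmPGE2 (-1.10 against vehicle, adjusted p = 3.81e-06). Sox4, a transcription factor gene, rose from 185 ± 20.3 to 351 ± 57.3 CPM after radiation at 1 h (0.92, adjusted p = 2.41e-12) and was lower with dmPGE2 (166 ± 28.4 CPM, -1.08, adjusted p = 7.19e-12). Gata2, a factor needed in HSC, was higher with dmPGE2 in irradiated HSC (619 ± 130 against 354 ± 50.6 CPM, 0.80, adjusted p = 1.46e-07). In all, 5 targets were higher and 3 lower after radiation at 1 h, beside 16% of all genes called. With dmPGE2 in irradiated HSC 3 targets were higher and 4 lower, beside 14.8% of all genes. With dmPGE2 alone 4 were higher and 1 lower, beside 11.1% of all genes. Cdkn1a was among the higher (131 ± 33.4 against 8.30 ± 3.87 CPM, log2 fold change 3.98, adjusted p = 5.15e-27), the opposite direction to that in irradiated HSC.

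After 24 h with vehicle 4 targets were higher and 7 lower, beside 49.7% of all genes called, Cdkn1a (703 ± 94.3 CPM) and Sox4 (66.1 ± 11.4 CPM) having the smallest adjusted p. With dmPGE2 at 24 h 8 were higher and none lower, beside 23.9% of all genes called, led by Flt3, a receptor of multipotent progenitors (57.007 ± 62.1 against 7.67 ± 2.39 CPM, log2 fold change 2.89, adjusted p = 1.69e-06), and Myb (311 ± 63.4 against 214 ± 33.2 CPM, 0.54, adjusted p = 1.98e-05). That count was 4 without libraries 5 to 7. Radiation with vehicle at 24 h had lowered Flt3 from the baseline (log2 fold change -2.42, adjusted p = 6.88e-07). Scaled to total counts, Flt3 ranged from 8.15 to 164 CPM over the 24 h dmPGE2 libraries (median 20.8). On that scale it ranged from 29.1 to 68.3 in the baseline (median 42.95) and from 34.5 to 172 with radiation and vehicle at 1 h. The dmPGE2 median at 24 h thus lay below that of the baseline, while the mean of 57.007 lay above the baseline mean of 41.2.

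A list of 19 other self-renewal regulators, 18 of them tested, was examined last. After radiation at 1 h 2 were higher and 4 lower, beside 16% of all genes called, and with dmPGE2 in irradiated HSC 2 were higher and 4 lower, beside 14.8%. Nkx2-3, a homeobox gene, fell with radiation from 73.6 ± 11.6 to 36.2 ± 5.54 CPM (log2 fold change -1.02, adjusted p = 2.92e-07) and stood at 204 ± 47.3 with radiation and dmPGE2 (2.49, adjusted p = 1.38e-17). Mycn fell with radiation from 413 ± 56.9 to 193 ± 53.1 CPM (-1.10, adjusted p = 1.45e-08), and Egr1, an immediate early gene, was higher with dmPGE2 (876 ± 374 against 96.9 ± 60.9 CPM, 3.18, adjusted p = 2.48e-06). By 24 h with vehicle 1 was higher and 12 lower, beside 49.7% of all genes called, led by Zfp521 (26.8 ± 8.90 against 70.1 ± 13.6 CPM, -1.39, adjusted p = 5.21e-10) and Mllt3. With dmPGE2 at 24 h 5 were higher and 2 lower, beside 23.9% of all genes called, and these counts were 1 and 1 without libraries 5 to 7. Nkx2-3 (80.03 ± 25.2 against 41.2 ± 11.8 CPM, 0.96, adjusted p = 2.15e-05) and Zfp521 (53.7 ± 23.0 CPM, 1.00, adjusted p = 4.36e-05) led in the fit of all libraries.

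Male and female mice were compared at 24 h, where the column names of the 16 libraries state the sex. A difference between males and females in the dmPGE2 response was called for 0 of the 9 members, also with DESeq2, and 0 had an unadjusted p below 0.05. Of 13714 genes tested, 0% were called by edgeR, 1623 had an unadjusted p below 0.05, and DESeq2 called 43. Gfi1 had 16.2 ± 2.57 CPM in 4 female and 52.9 ± 31.0 in 4 male dmPGE2 mice, against 5.43 ± 1.98 and 9.15 ± 2.98 with vehicle. The difference in response of 0.94 on the log2 scale (SE 0.54) carried an adjusted p of 0.518. Hoxa9 had 36.6 ± 7.31 CPM in female and 58.4 ± 10.9 in male dmPGE2 mice, against 30.6 ± 5.03 and 38.5 ± 6.20 with vehicle (difference 0.32, adjusted p = 0.693). Libraries 5 to 7 are all male.

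Across the 54 libraries, the gene whose log2 CPM followed that of Hoxa9 most closely was Hoxa10 (Pearson r = 0.90), and next Myct1 (r = 0.87). Prdm16 was closest to Rin3 (r = 0.90) and Zmiz1 (0.89), Mecom to Zfp608 and Arhgap31 (0.85 and 0.84), Hlf to Mllt3 and Sash3 (0.85 and 0.83), and Gfi1b to Tbxa2r, a thromboxane receptor gene, and Fam212a (0.80 each). Lower values were found for Gfi1 with Cldn5 (0.77) and B4gat1 (0.74), Meis1 with Tmco6 (0.77) and Mum1 (0.75), Bmi1 with Gnai3 (0.69) and Crk (0.66), and Hoxb4 with Hoxa7 (0.68) and Rgs2 (0.65). Between members the closest pairs were Mecom with Prdm16 (r = 0.79) and Mecom with Hlf (r = 0.72), while Gfi1 and Gfi1b gave r = 0.21. After each group's mean was removed these were 0.54, 0.51 and 0.11. These values describe 54 libraries that share group, depth and in part a tag, and carry no test.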

How the data were processed

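Sequencing libraries were made from sorted HSC with RNeasy Plus Micro, SMART-Seq v4 and Nextera XT kits, per the labels' protocols, which mark neither strand nor molecules. The deposited values are raw read counts per gene, per the file headers, and per the submitters' processing notes the tools included STAR 2.5.2b, featureCounts and Subread 1.5.1 with the mm10 genome. Neither the gene annotation nor the setting for strand is named in the sources used.

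The 54 libraries were fitted in 1 model with a term per group by edgeR 4.0.16 (robust quasi-likelihood test, TMM scaling, filterByExpr with a count minimum of 10) in R 4.3.3. The sexes were compared at 24 h in a fit of their own. P-values were adjusted over all genes tested by the Benjamini-Hochberg method and called below 0.05. DESeq2 1.42.0, other scalings, no filter, only the groups compared, sex as a term, the tag as a replicate block, and fits without the 24 h dmPGE2 libraries 5 to 7 (or 3 and 5 to 7) were the alternatives. Fits on changed baseline libraries were added after seeing the data. The scripts were tested on simulated data. Total counts per library ran from 15049364 to 26217041. Each group is labelled as separate mice, which the baseline tags put in doubt, so p-values there may in part measure technical spread.

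The members and gene lists were chosen with earlier results of these data known. All members are named. The rule was to name, from each list, the 2 genes with the smallest adjusted p in a comparison, and, as most like each member, the 2 genes with the highest Pearson r of log2 CPM. Some genes that this rule names are not reported here. Other genes named, and the promoters of Hlf and Gfi1b, were chosen after their values were seen. Tags pair the libraries in the comparison of dmPGE2 with vehicle in irradiated HSC at 1 h, where deviations of the 8 pairs correlated at 0.17 to 0.70, and in no other comparison were all correlations above 0.1. Promoters came from RefSeq windows (GRCm38.p6), and exon overlaps from GENCODE M21.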

Additional observations from a re-analysis of the deposited data

Results flagged for a closer look

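Of 45 groups of a member examined, 6 held a library far from the others by Dixon's criterion, which chance alone gives in about 1 of 20 groups. Hoxa9 was 42.1 CPM in irradiated vehicle library 3 at 1 h, where the others had 26.7 to 32.3. Hoxb4 was 2.83 CPM in irradiated dmPGE2 library 3 at 1 h (others 1.23 to 1.99) and 3.16 CPM in irradiated dmPGE2 library 5 at 24 h (others 0.398 to 1.63). Gfi1 was 0.681 CPM in irradiated vehicle library 6 at 1 h, where the others had 4.10 to 7.17. Gfi1b was 202 CPM in irradiated vehicle library 5 at 24 h (others 122 to 155), and Bmi1 was 53.1 CPM in irradiated dmPGE2 library 7 at 1 h (others 83.97 to 95.003).

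The response to dmPGE2 at 1 h differed with radiation by the interaction term of edgeR for Hoxa9 (0.77 on the log2 scale) and Gfi1 (1.78). It differed between 24 h and 1 h in irradiated HSC for Hoxa9 (-0.55) and Meis1 (-0.44). The call for Hoxa9 was lost with only the groups compared (adjusted p = 0.0677) and with the replicate block (adjusted p = 0.0509).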

How the results depend on the processing

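Across 12 alternatives 990 log2 fold changes of the members were recomputed. Of these, 946 stayed on their side of the threshold, 21 lost the call, 23 gained it and 0 reversed a call. RLE factors and scaling by total count changed 0 of 108 calls each, although total count moved the median of all genes under radiation with vehicle at 24 h from -0.063 to -0.16.

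Counts of members called changed by more than 1.5 times as follows. For dmPGE2 by radiation (2 members) it was 1 with the baseline pairs summed or no filter and 0 with S42 to S70 alone, where edgeR called neither Hoxa9 nor Gfi1. For dmPGE2 in irradiated HSC at 24 h (3) it was 1 with the replicate block, without libraries 5 to 7, and without libraries 3 and 5 to 7. For the 24 h minus 1 h response (2) it was 1 with only the groups compared or the replicate block. For dmPGE2 without radiation (0) it was 1 with S79 to S85 alone, DESeq2, or without libraries 5 to 7 or 3 and 5 to 7, 2 with only the groups compared and 4 with the replicate block. For irradiated dmPGE2 against baseline at 1 h (1) it was 2 with DESeq2, only the groups compared, or without libraries 5 to 7 or 3 and 5 to 7, and 3 with the replicate block.

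Over all genes, dmPGE2 by radiation (426 called) gave 878 with S79 to S85 alone, 665 with only the groups compared and 942 with the replicate block. Treatment with dmPGE2 in irradiated HSC at 24 h (3421) gave 1507 with only the groups compared, 1352 with the block, 1815 with sex as a term, 1123 without libraries 5 to 7 and 854 without 3 and 5 to 7. The 24 h minus 1 h response (3641) gave 2401 and 2318 without those libraries. With the block, dmPGE2 without radiation (1589) gave 2993 and radiation under dmPGE2 (54) gave 83. Irradiated dmPGE2 against baseline at 24 h (5206) gave 3100 with S79 to S85 alone, radiation with vehicle at 1 h (2285) gave 1244 with S42 to S70 alone, and the sexes (0) gave 43 with DESeq2. Fits on 1 baseline set or without libraries have fewer samples, and for the other alternatives the cause was not tested. Outside the comparison of dmPGE2 with vehicle in irradiated HSC at 1 h, not all same-tag correlations were above 0.1. They were nevertheless all positive for dmPGE2 without radiation (0.082 to 0.58) and for radiation under dmPGE2 (0.092 to 0.54). Depth limits Hoxb4 most.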
